A study of Mus musculus with 2 samples.

Results

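Proteasome genes were compared in RNA labelled thymus and described as from thymocytes, from wild-type mice and from null mice, which lack the studied gene. They were taken as every gene on the array whose platform symbol begins with Psma, Psmb, Psmc, Psmd, Psme, Psmf or Psmg, which gave 47 of 16504 measured genes, carried by 49 features. Of these, 45 encode subunits, activators, a regulator or assembly factors of the proteasome. The other 2 match by name only: Psmc3ip encodes a meiotic recombination protein and Psme3ip1 a protein that binds an activator. Psmb6, Psme2, Psme2b and Psmg4 had no feature under these names and are not analysed here.

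Each genotype, -/- or +/+, was 1 pool of RNA from 3 mice, and both pools were hybridised to 2 arrays with the dyes exchanged, so that the arrays repeat the measurement and not the mice. The sources used here give neither the strain and age of the mice nor the construction of the null allele. The source is labelled thymus and the description names thymocytes, the developing T cells. The file holds ratios and no intensities, so neither the level of a gene nor the cell types in a pool could be checked from it. With 1 pool a genotype, differences could not be tested across mice, and no p-value is given.

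All values are log2 ratios, null over wild type, where 0 is no difference. The array that held the null pool in Cy5 is called the null-Cy5 array, and that with the null pool in Cy3 the null-Cy3 array. Where 2 values are given for a gene, the null-Cy5 value comes first. Means are over these 2 arrays, and each SD (n = 2 arrays) is technical. To be called higher or lower, a gene had to differ at least 1.5-fold, 0.58 in log2, and the same way on the 2 arrays. The file does not state the direction of either column. The first was read as null over wild type, and the second, that of the null-Cy3 array, as already turned. Were both columns the other way round, every sign given here would be reversed. As read, the arrays correlated at Pearson's r = 0.24 across the 16504 genes, but at r = -0.86 across 4159 features without a gene name and at r = -0.45 across all 22393 features. At 1.5-fold, 68 genes were higher and 183 lower on both arrays, while 72 went opposite ways. Genes and features are not independent replicates, and the direction is not settled by these values.

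The proteasome degrades proteins that carry ubiquitin chains. Its 20S core is a stack of rings, with outer rings of alpha subunits and inner rings of beta subunits that hold the catalytic sites. The 19S particle caps the core: its base of ATPases unfolds substrates, and its lid removes the ubiquitin. In cells that respond to interferon, the inducible subunits encoded by Psmb8, Psmb9 and Psmb10 replace the constitutive catalytic ones and form the immunoproteasome, which makes peptides for class I molecules. Psmb11 encodes the catalytic subunit of the thymoproteasome, which is known from cortical thymic epithelium and not from thymocytes.

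No proteasome gene reached the threshold, but most lay slightly above 0 in the null pool. None of the 47 was called higher and none lower, where 0.412% of all genes were called higher and 1.11% lower. Of the 47, 28 lay above 0 on both arrays, a share of 59.6%, and 25.0% of all genes did so. Only Psmd11 lay below 0 on both arrays, as did 25.0% of all genes. The median over the 47 genes was 0.29, with 0.18 on the null-Cy5 and 0.30 on the null-Cy3 array, and the median over all genes was 0.00. Were the second column not already turned, the median of the 47 would be -0.01, and 7 would lie above and 11 below 0 on both arrays. Genes on opposite sides of 0 as read would then lie on 1 side, which makes 38.3% of the 47 and 50.0% of all genes. For all genes, the shares above and below 0 were not counted apart under that reading. Were the deposited values natural logs or log2 in place of log10, the median would be 0.13 or 0.087. These are bulk pools, in which a different share of cells and a different amount of RNA per cell cannot be told apart.

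At a lower threshold of 0.32 in log2 on both arrays, 5 of the 47 genes passed as higher and none as lower. This share of 10.6% stood beside 2.29% of all genes higher and 2.90% lower at that threshold. The 5 were the core genes Psma5 and Psmb2, the lid genes Psmd7 and Psmd14, and the assembly factor gene Psmg2. For 26 of the 47 genes the mean was larger in size than the SD between the arrays. The same count over all genes was not made, so this number has no background to be read against.

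**Figure D1:**
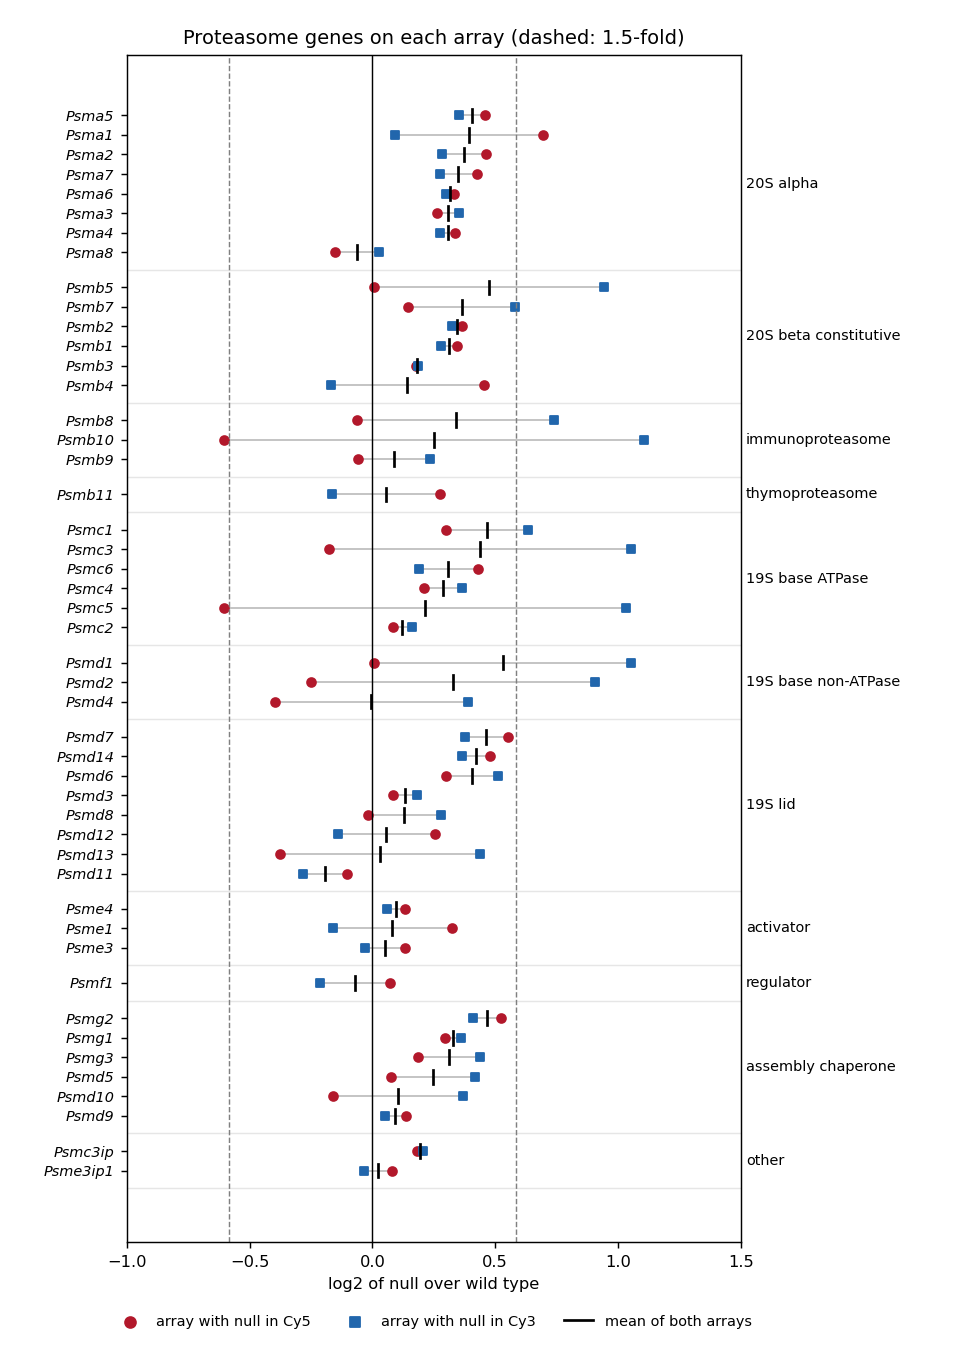
Log2 of null over wild type for each of the 47 genes, by class, with a red circle for the null-Cy5 array, a blue square for the null-Cy3 array and a black bar for their mean. Dashed lines mark 1.5-fold; most alpha subunit genes sit close together above 0, while Psmb10 and Psmc5 reach past 1.5-fold on opposite sides.

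Promoter stretches are shown for 3 alpha subunit genes with CCAAT boxes near their start, and for Psmb5, whose arrays disagreed. Each line holds the 150 bases before the annotated start, 5′ to 3′, from RefSeq on build GRCm38.p6. Capitals mark CCAAT boxes on either strand in the first 3, and the match to the antioxidant response element in Psmb5. The stretches lie at chr7:114276117-114276266, minus strand for Psma1, chr13:14613092-14613241, plus strand for Psma2, chr12:55384072-55384221, plus strand for Psma6 and chr14:54617996-54618145, minus strand for Psmb5.
Psma1: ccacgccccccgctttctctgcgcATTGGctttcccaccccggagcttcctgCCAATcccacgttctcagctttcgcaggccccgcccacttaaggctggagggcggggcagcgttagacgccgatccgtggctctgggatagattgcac
Psma2: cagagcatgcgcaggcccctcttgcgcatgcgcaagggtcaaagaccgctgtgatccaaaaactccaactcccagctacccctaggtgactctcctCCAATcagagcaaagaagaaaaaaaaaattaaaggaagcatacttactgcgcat
Psma6: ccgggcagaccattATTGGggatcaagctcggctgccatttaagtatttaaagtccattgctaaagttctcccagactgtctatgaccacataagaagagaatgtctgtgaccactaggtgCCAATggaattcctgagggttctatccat
Psmb5: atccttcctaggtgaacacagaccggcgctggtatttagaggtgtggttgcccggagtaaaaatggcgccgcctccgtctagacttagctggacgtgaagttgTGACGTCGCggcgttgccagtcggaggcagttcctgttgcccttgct

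The CCAAT box binds NF-Y, and the antioxidant response element is bound by factors such as Nfe2l1, which is known to drive proteasome genes when the proteasome is inhibited. Motifs were searched on both strands in the 250 bases before each start, and 39 of the 47 genes had a promoter in the table. The CCAAT box, spelled CCAAT, was found in 16 of these 39 genes, or 41.0%, and in 37.5% of 27025 genes. The antioxidant response element, searched as the loose pattern TGANNNNGC, had a match in 15, or 38.5%, and in 38.7% of all genes. A match to so loose a pattern need not be a working element. The interferon-stimulated response element, searched as GAAA, any 2 bases and GAAA again, was found in 3, or 7.69%, and in 3.46% of all genes. These shares lay near the background for the first 2 motifs, and the count for the third is small. The 3 genes with the interferon motif were Psmb3, Psmd4 and Psmd9, and none of the 3 immunoproteasome genes had a match in this window. Of the 7 alpha subunit genes with a promoter, Psma1, Psma2, Psma3, Psma6 and Psma7 had a CCAAT box. Over the 39 genes, the median log2 ratio was 0.19 for those with a CCAAT box and 0.25 for those without. Whether the box bears on these values was not tested. Matches of different motifs overlapped in 0 cases.

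The alpha subunits form the outer rings of the core and gate the entry of substrates. All genes of the ubiquitous set, Psma1 to Psma7, lay above 0 on both arrays, and their means fell in a narrow range, from 0.31 to 0.41. Psma5 stood at 0.46 and 0.35 (mean 0.41, SD 0.07), the highest mean of the class. Psma2 stood at 0.46 and 0.28 (mean 0.37, SD 0.13), and Psma7 at 0.42 and 0.28 (mean 0.35, SD 0.11). For these 3 genes both arrays lay on the same side of 0 by more than their spread. Psma6 stood at 0.33 and 0.30 (mean 0.32, SD 0.02), Psma3 at 0.26 and 0.35 (mean 0.31, SD 0.07) and Psma4 at 0.34 and 0.27 (mean 0.31, SD 0.05). The arrays were closest for Psma6. Psma1 had the widest gap of the class, at 0.69 and 0.09 (mean 0.39, SD 0.42), so its mean did not exceed its spread. Psma8, which encodes a testis form of the alpha4 subunit, lay on both sides of 0 at -0.15 and 0.03 (mean -0.06, SD 0.13).

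Among the constitutive beta subunits, Psmb1, Psmb2 and Psmb3, which are not catalytic, gave nearly the same value on both arrays. Psmb2 stood at 0.36 and 0.32 (mean 0.34, SD 0.03), Psmb1 at 0.34 and 0.28 (mean 0.31, SD 0.05) and Psmb3 at 0.18 and 0.19 (mean 0.18, SD 0.01). Psmb4, also not catalytic, stood at 0.45 and -0.17 (mean 0.14, SD 0.44), so its arrays fell on opposite sides of 0. The 2 catalytic genes measured were higher on the null-Cy3 array. Psmb5, the chymotrypsin-like subunit whose promoter is printed above, stood at 0.01 and 0.94 (mean 0.47, SD 0.66). Psmb7, the trypsin-like subunit, stood at 0.14 and 0.58 (mean 0.36, SD 0.31). Psmb5 thus had the second highest mean of all 47 genes, with an SD larger than that mean. With the second column turned, its mean would be -0.47, rank 42 of the 47.

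The immunoproteasome genes fell on opposite sides of 0 on the 2 arrays, all 3 of them below 0 with null in Cy5 and above 0 with null in Cy3. Psmb8, the inducible counterpart of Psmb5, stood at -0.06 and 0.74 (mean 0.34, SD 0.57). Psmb9, the inducible counterpart of Psmb6, stood at -0.06 and 0.23 (mean 0.09, SD 0.21). Psmb10, the inducible counterpart of Psmb7, stood at -0.60 and 1.10 (mean 0.25, SD 1.21), past 1.5-fold in opposite directions. For each of the 3 the spread between the arrays was larger than the mean. With the second column turned, each of the 3 would be negative on both arrays. Their median would be -0.40, and Psmb10 would be called lower. Their direction therefore depends on how that column is read.

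Set against its constitutive counterpart on the same array, Psmb8 was lower on both arrays, while Psmb10 was split. Over the 2 pairs with both genes measured, the inducible minus the constitutive mean was -0.41 and 0.16 (mean -0.12, SD 0.40). For the pair Psmb8 and Psmb5 the difference was -0.07 and -0.20 (mean -0.14, SD 0.09). For Psmb10 and Psmb7 it was -0.75 and 0.52 (mean -0.11, SD 0.90), with opposite signs on the arrays. With Psmb9 added, whose counterpart Psmb6 was not measured, the mean of Psmb8, Psmb9 and Psmb10 minus the mean of Psmb5 and Psmb7 was -0.32 and -0.07 (mean -0.19, SD 0.18). The means behind this unmatched difference were 0.22 for the inducible and 0.42 for the constitutive genes, and it barely exceeded its spread. Turning the second column would reverse the sign of each null-Cy3 difference. The Psmb8 pair would then be split, Psmb10 would be lower than Psmb7 on both arrays, and the unmatched difference would average -0.12 and be split.

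Psmb11, the thymoproteasome gene, stood at 0.28 and -0.16 (mean 0.06, SD 0.31) and had no common direction. Among 11 markers of thymic epithelium, 8 lay below 0 on both arrays and 3 were called lower, with a median of -0.21 and means from -1.30 to 0.04. Among all genes, 25.0% lay below 0 on both arrays and 1.11% were called lower. The 3 markers called were Fezf2, a transcription factor of medullary epithelium, at -1.12 and -1.49 (mean -1.30, SD 0.26), the keratin gene Krt5 at -0.86 and -1.10 (mean -0.98, SD 0.17) and the adhesion molecule gene Epcam at -0.76 and -0.62 (mean -0.69, SD 0.10). The other 3 were split across 0. Of these, Foxn1, a transcription factor of this epithelium, stood at -0.02 and 0.10 (mean 0.04, SD 0.09), and Prss16, a thymus-specific serine protease of cortical epithelium, at 0.45 and -0.40 (mean 0.02, SD 0.60), while Ly75, an endocytic receptor, stood at 0.48 and -0.40 (mean 0.04, SD 0.62). Whether the share of epithelium bears on the value of Psmb11 was not tested.

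The ATPases of the 19S base all had means above 0, and 4 of 6 lay above 0 on both arrays. Psmc1, the Rpt2 subunit, had the highest mean of the class at 0.30 and 0.63 (mean 0.47, SD 0.24). Psmc4, the Rpt3 subunit, stood at 0.21 and 0.37 (mean 0.29, SD 0.11), and Psmc6, the Rpt4 subunit, at 0.43 and 0.19 (mean 0.31, SD 0.17). In these 3 genes the mean exceeded the spread between the arrays. Psmc2, the Rpt1 subunit, was lowest at 0.08 and 0.16 (mean 0.12, SD 0.06), the average of 2 features that disagreed. Its feature for NM_011188 averaged 0.27 and its feature for AK083989 averaged -0.03. Psmc3, the Rpt5 subunit, stood at -0.18 and 1.05 (mean 0.44, SD 0.87), and Psmc5, the Rpt6 subunit, at -0.60 and 1.03 (mean 0.21, SD 1.16). Both were split between the arrays like Psmb10, and Psmc5 passed 1.5-fold in both directions.

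The base subunits without ATPase activity were split in the same orientation. Psmd1, the scaffold subunit Rpn2, had the highest mean of all 47 genes at 0.01 and 1.05 (mean 0.53, SD 0.74). Psmd2, the scaffold subunit Rpn1, stood at -0.25 and 0.90 (mean 0.33, SD 0.82). Psmd4, the ubiquitin receptor Rpn10, stood at -0.40 and 0.39 (mean 0.00, SD 0.56). In each of the 3 the spread exceeded the mean, and only Psmd1 was above 0 on both arrays. With the second column turned, the mean of Psmd1 would be -0.52, rank 43 of the 47.

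The 8 lid genes differed in direction, with a median of 0.13 that lay under both arrays' own medians of 0.17 and 0.32. Psmd7, which pairs with the deubiquitinase, stood at 0.55 and 0.38 (mean 0.46, SD 0.12). Psmd14, the deubiquitinase Rpn11 itself, stood at 0.48 and 0.36 (mean 0.42, SD 0.08), and Psmd6, the Rpn7 subunit, at 0.30 and 0.51 (mean 0.40, SD 0.15). These 3 lay together above 0 by more than their spread. Psmd3 followed at 0.09 and 0.18 (mean 0.13, SD 0.07). Psmd8 at -0.02 and 0.28 (mean 0.13, SD 0.21), Psmd12 at 0.25 and -0.14 (mean 0.06, SD 0.28) and Psmd13 at -0.38 and 0.44 (mean 0.03, SD 0.58) had no common direction. Psmd11, the Rpn6 subunit, was the lowest of the 47 genes at -0.10 and -0.28 (mean -0.19, SD 0.13).

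Activator and regulator genes lay near 0. Psme1, a subunit of the interferon-inducible activator PA28, stood at 0.32 and -0.16 (mean 0.08, SD 0.34). Psme3, the nuclear activator PA28 gamma, stood at 0.13 and -0.03 (mean 0.05, SD 0.11). Psme4, the activator PA200, stood at 0.13 and 0.06 (mean 0.10, SD 0.05), where its feature for BC004575 averaged 0.19 and its feature for AK080260 averaged 0.00. Psmf1, which encodes the regulator PI31, stood at 0.07 and -0.21 (mean -0.07, SD 0.20). In the mean, all 4 differed by 1.07-fold or less, and only Psme4 had both arrays on 1 side of 0.

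Of the 6 assembly factor genes, 5 lay above 0 on both arrays, with a median of 0.28. Psmg1 and Psmg2 encode a pair that builds the alpha ring, and Psmg3 acts on it with Psmg4. Psmg2 stood at 0.52 and 0.41 (mean 0.47, SD 0.08), Psmg1 at 0.29 and 0.36 (mean 0.33, SD 0.05) and Psmg3 at 0.19 and 0.44 (mean 0.31, SD 0.18). All 3 lay above 0 on both arrays by more than the spread. The chaperones of the base had smaller means. Psmd5 stood at 0.08 and 0.42 (mean 0.25, SD 0.24), Psmd9 at 0.14 and 0.05 (mean 0.09, SD 0.06) and Psmd10 at -0.16 and 0.37 (mean 0.10, SD 0.38), on both sides of 0. Outside the complex, Psmc3ip stood at 0.18 and 0.21 (mean 0.19, SD 0.02) and Psme3ip1 at 0.08 and -0.03 (mean 0.02, SD 0.08).

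**Figure D2:**
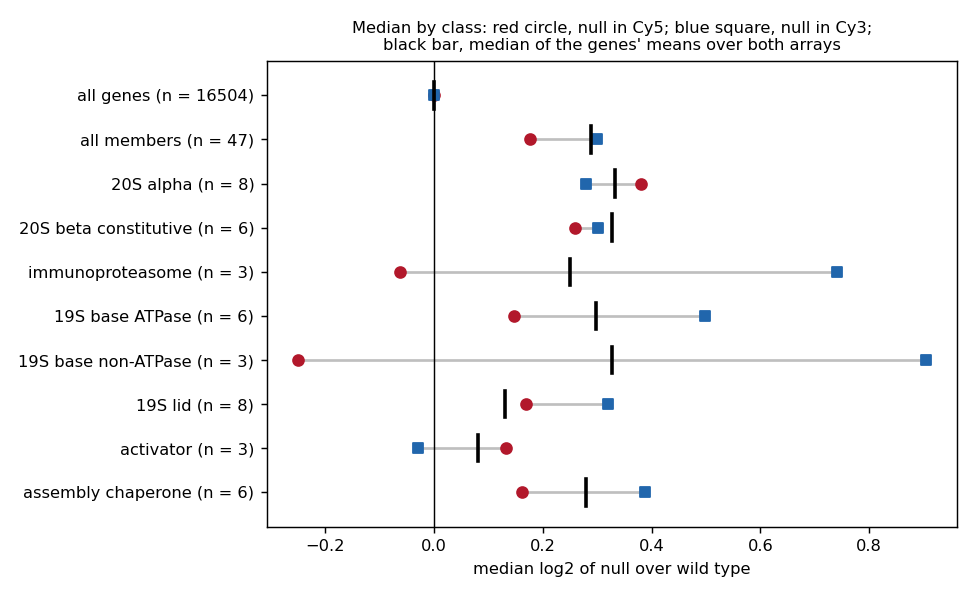
Median log2 of null over wild type by class, with a red circle for the null-Cy5 array, a blue square for the null-Cy3 array and a black bar for the median of the genes' means. The alpha and constitutive beta medians lie near 0.33 with both array medians close by, while the immunoproteasome and the base subunits without ATPase activity are split across 0. Close array medians do not show the gaps of single genes, such as Psmb4, Psmb5 and Psmb7.

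The arrays disagreed most for a few genes, in 1 orientation. Of the 47, 18 lay on opposite sides of 0, a share of 38.3% beside 50.0% of all genes. Of the 18, 11 were positive with null in Cy3 and 7 with null in Cy5. At 1.5-fold or more, 2 went opposite ways, Psmb10 and Psmc5, a share of 4.26% beside 0.436% of all genes. With the second column turned, these 2 would instead be called lower on both arrays, as 0.339% of all genes would. With null in Cy3 alone, 8 genes reached 1.5-fold, which were Psmb5, Psmb8, Psmb10, Psmc1, Psmc3, Psmc5, Psmd1 and Psmd2, all higher, where 2.92% of all genes were higher by as much on that array and 2.68% lower. With null in Cy5 alone, 3 did, of which Psma1 was higher and Psmb10 and Psmc5 were lower, where 2.31% of all genes were higher and 2.47% lower. No alpha subunit was among the 8. Divided by 2, the gap between the arrays had an SD of 0.27 over the 47 genes, compared with 0.18 over all genes. The part of dye, noise or spot quality in this was not tested, since the file holds no intensities.

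**Figure D3:**
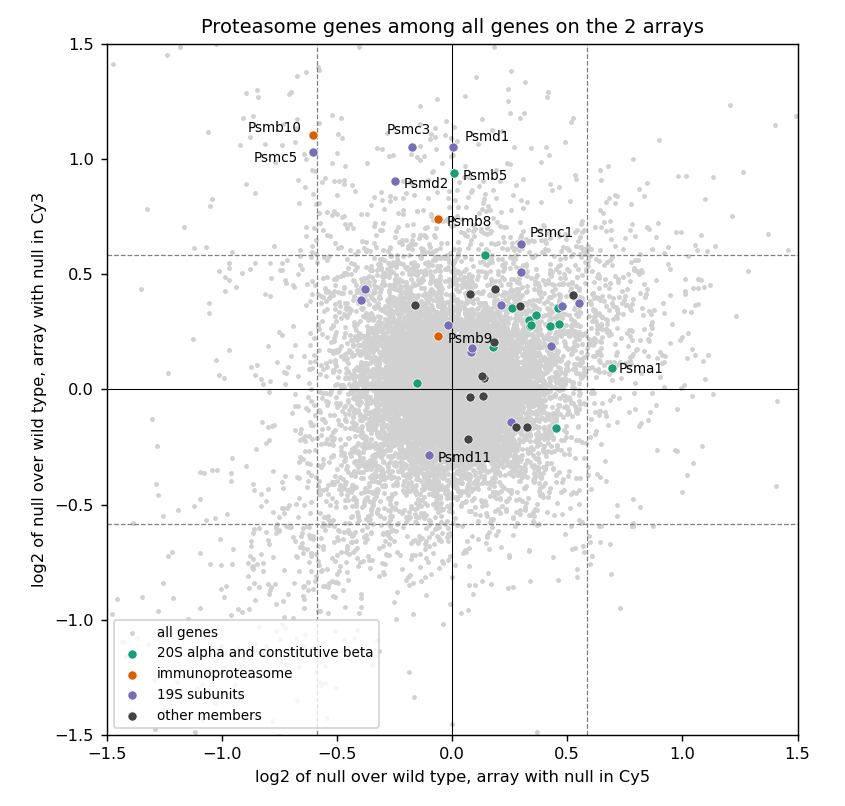
Log2 of null over wild type on the null-Cy5 array (x axis) against the null-Cy3 array (y axis), for all genes in grey and the 47 proteasome genes in colour, with dashed lines at 1.5-fold; 56 genes lie outside the plotted range. Many proteasome genes sit at the upper right short of the dashed lines, and Psmb10 and Psmc5 sit past them at the upper left.

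The 47 genes lie on 16 chromosomes. In the RefSeq gene order, Psmb9, Tap1, Psmb8 and Tap2 follow one another within the class II region. All 4 gave a lower ratio on the null-Cy5 than on the null-Cy3 array, as did 7865 of all 16504 genes and the neighbouring H2-Ob. Tap1 and Tap2 encode both chains of the transporter that carries proteasome-made peptides to class I molecules. Tap1 stood at -0.91 and 0.51 (mean -0.20, SD 1.00) and Tap2 at -0.64 and 1.02 (mean 0.19, SD 1.18), so neither had a common direction and Tap2 passed 1.5-fold in both. Of the class II genes on either side, H2-DMb1 stood at -0.63 and -0.70, and H2-Ob at -0.11 and 0.05, both with a smaller gap.

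Genes that act with the proteasome but carry other names gave mixed values. Their counts stand beside 25.0% of all genes above and 25.0% below 0 on both arrays. Of 14 listed genes of assembly and regulation, 11 were measured, 5 lay above and 3 below 0 on both arrays, none was called, and the median was 0.10. The highest was Txnl1, a thioredoxin-like protein of the 19S particle, at 0.80 and 0.17 (mean 0.49, SD 0.44). The 19S-bound deubiquitinase gene Uchl5 stood at 0.61 and 0.34 (mean 0.48, SD 0.19), and Usp14, another, at 0.23 and 0.70 (mean 0.47, SD 0.33). Uchl5 lay above 0 on each array by more than its spread, while the null-Cy5 value of Usp14 was smaller than its spread. Pomp, the maturation factor of the core, stood at 0.10 and 0.11 (mean 0.10, SD 0.00). The transcription factor gene Nfe2l1 stood at -0.06 and -0.18 (mean -0.12, SD 0.09). Akirin2, which helps bring proteasomes into the nucleus, was the lowest at -0.18 and -0.21 (mean -0.20, SD 0.01).

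Of 18 listed ubiquitin genes and shuttle factors, 11 were measured, 2 lay above 0 on both arrays, none below, and none was called. Their median was 0.11, from 0.37 for Ube2l3, a ubiquitin-conjugating enzyme, to -0.04 for Ube2d3, another. Of 11 genes of peptide transport and class I, 4 lay above and 1 below 0 on both arrays and none was called, with a median of 0.10. Their highest was Lap3, a cytosolic aminopeptidase, at 0.50 and 0.52 (mean 0.51, SD 0.02), and their lowest was B2m, the class I light chain, at 0.37 and -1.49 (mean -0.56, SD 1.31). Of 11 measured regulators of the interferon response, 7 lay below and 2 above 0 on both arrays, with a median of -0.20. The receptor gene Ifngr1 and the kinase gene Jak1 were called lower, at -1.11 (SD 0.46) and -0.67 (SD 0.02). Over all genes, 25.0% lay below and 25.0% above 0 on both arrays, and 1.11% were called lower. Irf1, a transcription factor known to bind immunoproteasome promoters, stood at 0.30 and 0.25 (mean 0.27, SD 0.03), and Ifnar2 was the highest of the list at 0.16 and 0.55 (mean 0.35, SD 0.28).

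Markers of other cells of the thymus lay mostly below 0 beside these values. Across all genes, 25.0% lay below and 25.0% above 0 on both arrays, and 1.11% were called lower. Of 8 measured markers of macrophages and dendritic cells, which carry immunoproteasomes, 7 lay below 0 on both arrays and 3 were called lower, with a median of -0.74 and means from -0.87 to 0.06. The 3 were the class II gene H2-Eb1 at -0.80 and -0.85, the invariant chain gene Cd74 at -0.65 and -0.86, and the protease gene Ctss at -0.86 and -0.77. The marker not below 0 on both arrays was Adgre1, at 0.19 and -0.07 (mean 0.06, SD 0.18). All 5 measured B cell markers lay below 0 on both arrays and 1 was called lower, with a median of -0.19. It was Cd79a, a chain of the B cell receptor, at -0.75 and -0.61. Of 9 thymocyte markers, 5 lay below and 2 above 0 on both arrays and 2 were called lower, with a median of -0.11. These were the coreceptor gene Cd4, with a mean of -0.67 (SD 0.01), and the recombinase gene Rag1, with a mean of -1.13 (SD 0.53). The 2 above 0 on both arrays were Thy1, at 0.32 and 0.37, and Dntt, at 0.56 and 0.05. Means over the 9 ran from -1.13 to 0.34. The part of these cell types in the proteasome values was not tested.

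The chaperonin CCT, another ring complex built from many subunits, gave larger values in the same direction, as the second column was read here. Its 8 genes had a median of 0.56, with 0.41 and 0.68 on the arrays, and 7 of them lay above 0 on both, as did 25.0% of all genes. Tcp1, at 0.65 and 0.71, was called higher, as were 0.412% of all genes. Turning the second column would put the CCT median at -0.12 and that of the 47 proteasome genes at -0.01. The difference between the complexes was not tested.

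**Figure D4:**
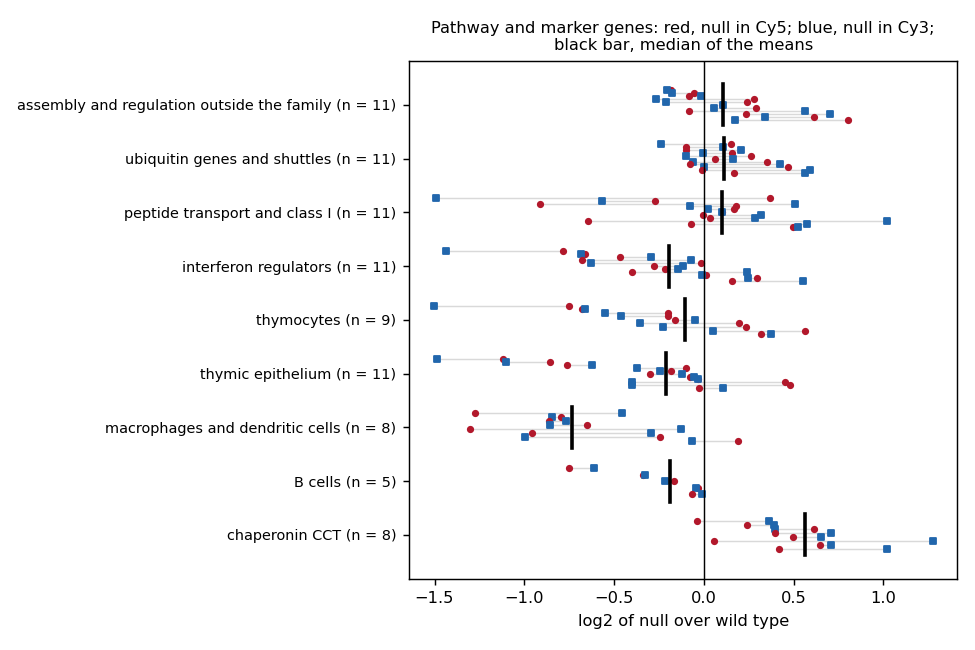
Log2 of null over wild type for pathway genes and cell type markers, 1 line per gene, with red circles for the null-Cy5 array, blue squares for the null-Cy3 array and black bars for the median of the means. The CCT genes lie mostly above 0 and the macrophage and dendritic cell markers mostly below it.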

How the data were processed

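The 2 RNA pools, each of 3 mice, were co-hybridised to 2 two-colour arrays with dyes exchanged. Per the submitters' processing notes, the software was Agilent Feature Extraction 7.1. The deposited log ratios were taken as log10, the convention of that software, and converted to log2. The base, the direction of the ratios and any centring are not stated in the sources used here. Exact zeros read 0 in the first column (80) and -0 in the second (82), so the second was read as already multiplied by -1, and 474 unnamed features went at least 2-fold opposite ways. The correlations of the arrays, given with the results, differ in sign between named and unnamed features.

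Features of a gene were averaged, with symbols updated by gene ID through RefSeq (GRCm38.p6). The 47 genes and all lists were chosen with earlier results of these data known. Every member could be named; of the pathway lists, genes called and the highest and lowest were named, and of the marker lists those called. Foxn1, Prss16, Ly75, Adgre1, Thy1, Dntt, Uchl5, Usp14, Pomp, Nfe2l1, Irf1 and neighbours of Psmb8 were chosen after their values were seen. With 1 pool per genotype no test was run. The calling rule was tested on simulated data as a check of the code only. The simulation held no error shared by the arrays, and no result here rests on it. Alternatives were centring, 1 array alone, the largest feature, log base, sign, symbol and threshold. The number of arrays limits the precision. Protein sequences were not used here. The targeted gene is not reported here. Python 3.11.15, numpy 2.4.6, pandas 2.3.3 and matplotlib 3.10.9 were used.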

Additional observations from a re-analysis of the deposited data

Results flagged for a closer look

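Psmb10 and Psmc5 went opposite ways on the 2 arrays by at least 1.5-fold each, lower with the null pool in Cy5 and higher with it in Cy3. The difference between the arrays divided by 2, taken as the null-Cy5 minus the null-Cy3 value, was -0.85 for Psmb10 and -0.82 for Psmc5. With the second column's sign turned, which the file does not exclude, these values would be their means, and both genes would be called lower on both arrays. Each has a single feature, and the difference was not tested.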

How the results depend on the processing

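No paired analysis was possible because there was 1 pool per genotype, shared by both arrays, and nothing was tested. With 1 array left out, the count of genes called higher ranged from 1 to 8, called lower from 0 to 2 and above 0 from 35 to 39; the medians ranged from 0.18 to 0.30 for all 47 genes, 0.28 to 0.38 for alpha, 0.26 to 0.30 for constitutive beta, -0.06 to 0.74 for immunoproteasome, 0.15 to 0.50 for ATPase, -0.25 to 0.90 for other base, 0.17 to 0.32 for lid, -0.03 to 0.13 for activator and 0.16 to 0.39 for assembly genes. The negative ends came from the null-Cy5 array alone, except for the activators, where it came from the null-Cy3 array. For the counts above 0, the median over all genes was -0.0002 on the null-Cy5 and 0.0003 on the null-Cy3 array. The threshold of 0.32 in log2 gave 5 higher. Read as natural logs, the medians were 0.13 for all 47 genes, 0.14 for alpha and 0.14 for constitutive beta subunits; read as log2, they were 0.087, 0.10, 0.099 and, for assembly chaperones, 0.084. With the second column's sign turned, 2 genes, Psmb10 and Psmc5, were called lower, and 7 lay above and 11 below 0 on both arrays. The medians were then -0.014 for all 47 genes, 0.042 for alpha, 0.0074 for constitutive beta, -0.40 for immunoproteasome, -0.12 for ATPase, -0.52 for other base, 0.0051 for lid and -0.080 for assembly genes. These shifts follow from the readings themselves. Each array's median subtracted, the largest feature, updated symbols and, chosen after seeing the data, leaving out Psmc3ip and Psme3ip1 moved no count by over 1.5 times and no median by over 1 SD. Signal over background is unknown, which limits what the split genes can show.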
